A study of Mus musculus with 15 samples.

Results

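Lysosomal hydrolases, lysosomal membrane proteins and their transcriptional regulators were followed in primary male mouse embryonic fibroblasts (MEFs) that lacked histone deacetylase 1 (Hdac1), had reduced Hdac2, or both. The set held 43 genes, listed by name. Each gene was read from a probe set annotated to its symbol alone, and where several existed, from the one with the highest mean over 15 arrays. Of the 43, 42 had such a probe set, and 41 passed the filter on dim signals, among 13382 genes tested from 18193 symbols with a probe set. The exceptions were Cd63, a tetraspanin of late endosomes, which had no probe set of a single symbol and was not analysed here, and Ctss, the gene of the cysteine protease cathepsin S. Ctss stayed between 14.5 and 19.4 in intensity on the 15 arrays, passed the filter level of 18.8 to 22.5 on 1 array, and was not tested.

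RNA was measured on Affymetrix mouse expression arrays in 5 groups of 3. Cells of 4 groups carried floxed Hdac1 alleles (Hdac1 fl/fl), a retrovirus for Cre-ERT2, which recombines floxed DNA once tamoxifen is added, and a second retrovirus for a hairpin micro-RNA. The control had the scrambled micro-RNA and ethanol. The KO group had the scrambled micro-RNA and tamoxifen at 200 nM, which deletes Hdac1. The Kd group had the micro-RNA against Hdac2 and ethanol, and the KO/Kd group had that micro-RNA and tamoxifen. The remaining group had intact Hdac1 (+/+) and tamoxifen, and its viruses, if any, are not given in the sources used here. KO against control therefore contains tamoxifen together with deletion, as do KO/Kd against Kd and KO/Kd against control. The last of these also contains the knockdown. In +/+ against control a difference of cells goes together with tamoxifen. Within each of these comparisons the parts cannot be told apart. Whether a group's 3 arrays stem from separate embryos or cultures is not stated, and the p-values therefore cover only array-to-array spread, possibly technical.

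The lysosome breaks down proteins, glycans, glycosaminoglycans and lipids with acid hydrolases, most of which are made as secretory proteins, tagged with mannose 6-phosphate and delivered by receptors. Many of its genes carry a palindromic E-box, the CLEAR element, near their start, which is bound by the basic helix-loop-helix factors Tfeb and Tfe3. When the kinase complex mTORC1 is active at the lysosomal surface these factors are held in the cytoplasm, and when it is inactive they enter the nucleus. Inherited loss of single hydrolases causes lysosomal storage diseases, after which many of the genes are known.

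The E-box was looked for in RefSeq promoter windows of assembly GRCm38.p6, which ran from 250 bases before to 50 after an annotated start. Some genes had several windows, 32851 for 27025 genes in all, and a gene counted if any window held the motif. Ctsa and Cln3 had 2 windows each. Their matches lay in a window whose start was inside the gene, not at its outer end. Of the 43 genes 38 had a window; Galns, Asah1, Ctsb, Ctsh and Npc1 had none in the table. The core CACGTG was present in 13 of 38 (34.2%), against 8.09% of 27025 genes with a window and 11.3% of 10734 tested genes with one. The longer palindrome TCACGTGA, which contains the core, was present in 5 of 38 (13.2%), against 1.12% and 2.07%. Shares in the related gene lists are given with the promoter letters further below. Both motifs read the same on either strand. The 5 genes with the longer palindrome are shown first, because they hold the full palindrome. The others shown are a choice among genes with a core whose values are given in detail afterwards, which leaves out Ctsl. Capitals mark the motif, each line runs 5′ to 3′ on the gene's strand, and position -1 is the last base before the start in that window.

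Ctsa: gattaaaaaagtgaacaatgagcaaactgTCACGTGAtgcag
Ctsd: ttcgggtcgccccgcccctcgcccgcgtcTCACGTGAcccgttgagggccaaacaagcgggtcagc
Cln3: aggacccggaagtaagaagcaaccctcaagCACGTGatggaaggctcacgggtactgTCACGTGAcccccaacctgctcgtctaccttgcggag
Gla: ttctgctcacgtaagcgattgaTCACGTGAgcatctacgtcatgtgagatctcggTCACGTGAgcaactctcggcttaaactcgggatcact
Mcoln1: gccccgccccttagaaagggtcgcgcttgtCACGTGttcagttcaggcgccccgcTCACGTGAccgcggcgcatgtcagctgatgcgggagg
Lamp1: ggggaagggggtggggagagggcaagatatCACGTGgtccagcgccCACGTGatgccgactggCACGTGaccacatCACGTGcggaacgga
Glb1: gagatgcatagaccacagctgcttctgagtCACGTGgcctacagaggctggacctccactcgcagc
Gaa: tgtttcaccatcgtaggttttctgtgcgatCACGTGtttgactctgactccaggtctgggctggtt
Arsa: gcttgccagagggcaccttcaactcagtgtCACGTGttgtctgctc
Naglu: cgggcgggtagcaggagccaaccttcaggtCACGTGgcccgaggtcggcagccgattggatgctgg
Ctsf: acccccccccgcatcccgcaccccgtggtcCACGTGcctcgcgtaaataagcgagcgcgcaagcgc

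The stretches lie at chr2:164833731-164833772 on the plus strand for Ctsa, chr7:142387890-142387955 on the minus strand for Ctsd, chr7:126583322-126583415 on the minus strand for Cln3 and chrX:134601164-134601255 on the minus strand for Gla. Those of Mcoln1 and Lamp1 are chr8:3500418-3500509 on the plus strand and chr8:13159070-13159160 on the plus strand. Glb1 is shown at chr9:114401000-114401065 on the plus strand, Gaa at chr11:119267793-119267858 on the plus strand, Arsa at chr15:89477425-89477470 on the minus strand, Naglu at chr11:101069991-101070056 on the plus strand and Ctsf at chr19:4855056-4855121 on the plus strand. Lamp1 held 4 cores, beginning at positions -61, -45, -28 and -15. Gla held the longer palindrome at 2 positions, -228 and -195. Outside the printed stretches, Ctsd held a further core at position -245 and Ctsa a further longer palindrome 5 bases into the transcript. Ctsl, at position -236, and Sgsh, at -29, held a core and are not printed. A match describes the letters in the window and does not show that a factor binds there.

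The arrays carried the labelled changes. Hdac1 read 106 to 203 on the 6 arrays with deletion and 3498 to 4806 on the other 9, and Hdac2 read 908 to 1031 on the 6 with its micro-RNA and 6492 to 7702 on the other 9. No pair of arrays was identical. Array medians ran from 24.1 to 25.1 in control and from 29.1 to 30.7 in KO/Kd cells, so brightness moved with the group, and quantile normalization lowered the median log2 fold change of all genes between KO/Kd and control by 0.19. Shifts are therefore given beside the all-gene median, and values after rescaling follow them. Fibroblast markers, 9 of 10 with a probe set and past the filter, summed to 176713 to 205441 over all arrays, but most moved in KO/Kd cells. S100a4 fell from a mean of 20642 in control to 948 there (limma, log2 -4.44, adjusted p = 5.39e-15). At an adjusted p under 0.05, Col3a1 (0.94), Pdgfrb (0.63), Pdgfra (0.50), Fn1 (0.38), Col1a2 (0.21) and Col1a1 (-0.24) also changed there. Thy1 and Vim did not pass in KO/Kd cells. In KO cells Thy1 rose by 1.14 and Pdgfrb by 0.37, while Col1a1 was at -0.24, Col3a1 at -0.57 and Pdgfra at -0.71. Of 12 macrophage markers 6 passed the filter, and the list summed to 450 to 479.6 in control, 509 to 717 in KO and 448 to 594 in KO/Kd cells. Csf1r had a mean of 88 in control, 176 in KO (limma, log2 0.85, adjusted p = 0.00346) and 70.7 in KO/Kd cells. Cd14 had means of 205, 247 and 236 in the same order and was called in neither. Adgre1, Lyz2, C1qb and Laptm5 never exceeded 40, and Ptprc, Itgam, Tyrobp, Fcer1g, C1qa and Mrc1 never exceeded 20.5. Of 6 osteoclast markers only Acp5 passed, with list sums of 81.1 to 85.8 in control and 95.6 to 105 in KO/Kd cells. The other lists also moved in part: endothelial sums were 67.2 to 74.8 and 114 to 153 (only Kdr of 5 passed), muscle sums 85.2 to 94.9 and 111 to 126, and epithelial sums 392 to 507 in control, 699.7 to 878 in KO and 291 to 355 in KO/Kd cells. The part of these markers in the results was not tested. In these bulk samples more cells of a type and more RNA per cell cannot be told apart.

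In KO/Kd cells most lysosomal genes of each role rose, except for the transcription factors, where 1 of 2 did. Of 41 tested genes 38 rose and 0 fell against control (limma with Benjamini-Hochberg adjustment over all genes, threshold 0.05), where 46.2% of all genes rose and 19.3% fell. At an unadjusted p under 0.05, again 38 were higher and 0 lower. The genes' median log2 fold change was 1.23, on the scale of log2(intensity + 16), which understates the change of dim genes, against 0.16 for all genes. Of the 41, 28 (68.3%) exceeded a log2 fold change of 1 and 6 exceeded 2, against 12.6% of all genes over 1. After quantile normalization, 37 rose and 0 fell, their median was 0.98, and 32.3% of all genes rose and 33.4% fell. The 3 genes that missed the threshold were Idua, the iduronidase of heparan and dermatan sulfate, at 0.22 (SE 0.111, adjusted p = 0.0911); Arsb, arylsulfatase B, at 0.11 (SE 0.0869, adjusted p = 0.3); and Tfe3 at 0.18 (SE 0.097, adjusted p = 0.106). Intensities of the KO/Kd and control arrays did not overlap for 39 of 41 genes, against 71.4% of all genes.

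**Figure D1:**
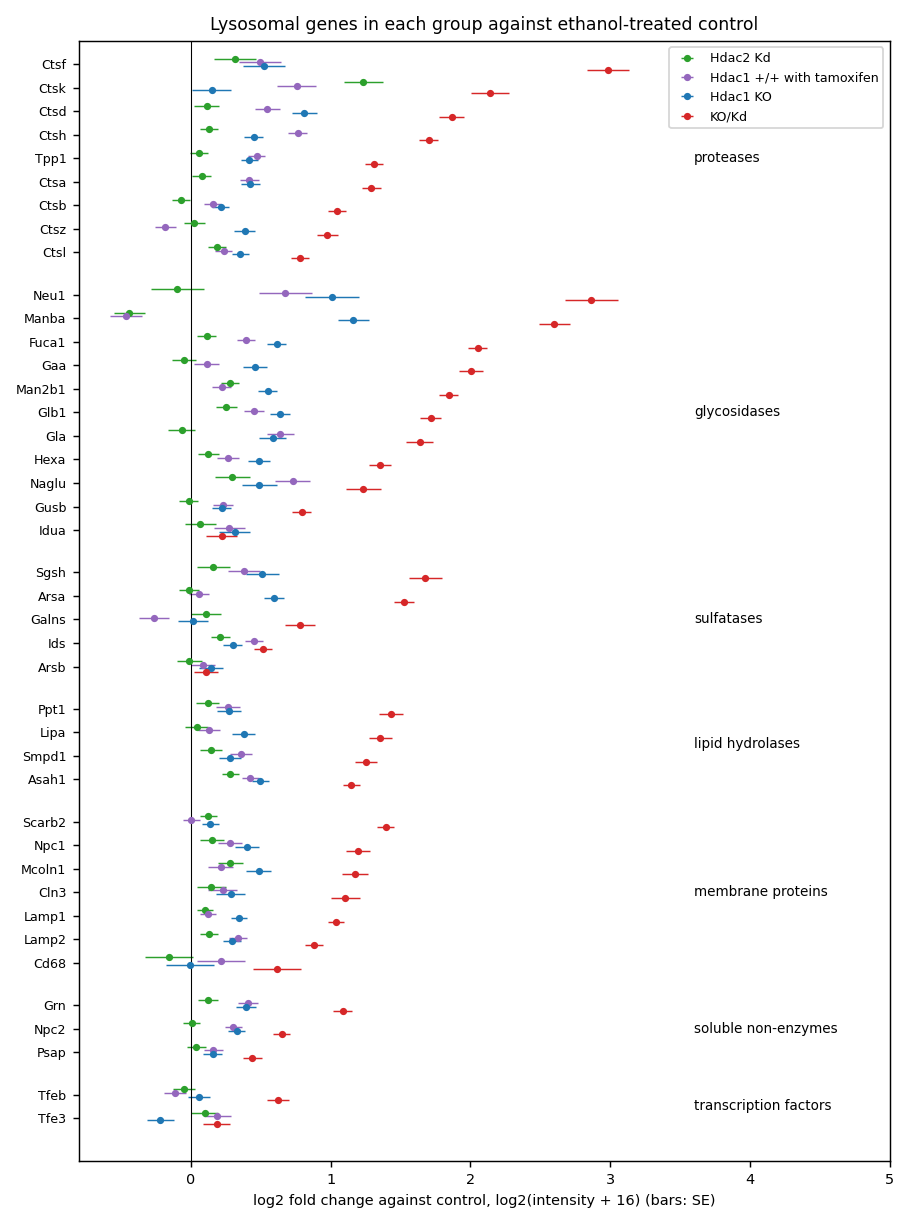
Log2 fold change against control (x axis, log2(intensity + 16); bars, SE) of 41 lysosomal genes grouped by role, in KO, Kd, KO/Kd and +/+ cells, 3 arrays a group. The KO/Kd points lie right of 0 for all 41 genes and reach 2.98 for Ctsf.

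Either single loss gave smaller shifts. In KO cells 31 of 41 genes rose and 0 fell (35 higher and 1 lower at an unadjusted p under 0.05), against 19.6% and 4.66% of all genes, with a median of 0.38 against 0.08. Only Manba and Neu1 passed a log2 fold change of 1 there. Rescaling by quantiles gave 30 higher and 1 lower (Tfe3, log2 -0.33, adjusted p = 0.00206), against 14% and 14.5% of all genes. In Kd cells 4 of 41 rose and 1 fell (9 higher and 1 lower at an unadjusted p under 0.05), against 7.55% and 3.04% of all genes, and the median was 0.11 against 0.04. After quantile normalization 6 rose and 1 fell in Kd cells, with a median of 0.07, against 8.33% and 7.29% of all genes. The 4 were Ctsk, Asah1, Man2b1 and Glb1, and the one that fell was Manba. The Kd count of 5 became 3 without control replicate 2 or any one Kd replicate, and 2 without control replicate 3. These comparisons share the control arrays. Arrays of KO and control did not overlap for 35 of 41 genes (35% of all genes), and those of Kd and control for 17 of 41 (34.6% of all genes).

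Deletion with tamoxifen was also assessed within knockdown cells. Knockdown was assessed within deleted cells, with tamoxifen on both sides. Against Kd cells, 38 of 41 genes rose in KO/Kd cells and 0 fell (38 and 0 at an unadjusted p under 0.05), against 42.9% and 20.5% of all genes, with a median of 1.05 against 0.13. Against KO cells, 39 rose and 0 fell (39 and 0 unadjusted), against 36.2% and 20.6%, with a median of 0.83 against 0.08. Here Idua at -0.09 and Arsb at -0.04 did not pass the test. After quantile normalization the first comparison gave 38 and 0 (31.4% and 32.6% of all genes), and the second gave 38 higher and 2 lower, Idua and Arsb (30.1% and 31.2%).

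The interaction tested whether deletion with tamoxifen had a different effect in knockdown than in scrambled cells, as KO/Kd minus Kd less KO minus control. It was positive and past the threshold for 36 of 41 genes and negative for 0 (38 and 0 at an unadjusted p under 0.05), against 25.8% and 17.2% of all genes (24.2% and 25.8% after quantile normalization, where 35 genes were positive). The median interaction was 0.76 against 0.06. Put as a sum, the single effects added up to a median of 0.50, and the KO/Kd effect had a median of 1.23 and exceeded the sum in 39 of 41 genes. The 5 that did not pass were Idua, Ids, Arsb, Tfe3 and Naglu.

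**Figure D2:**
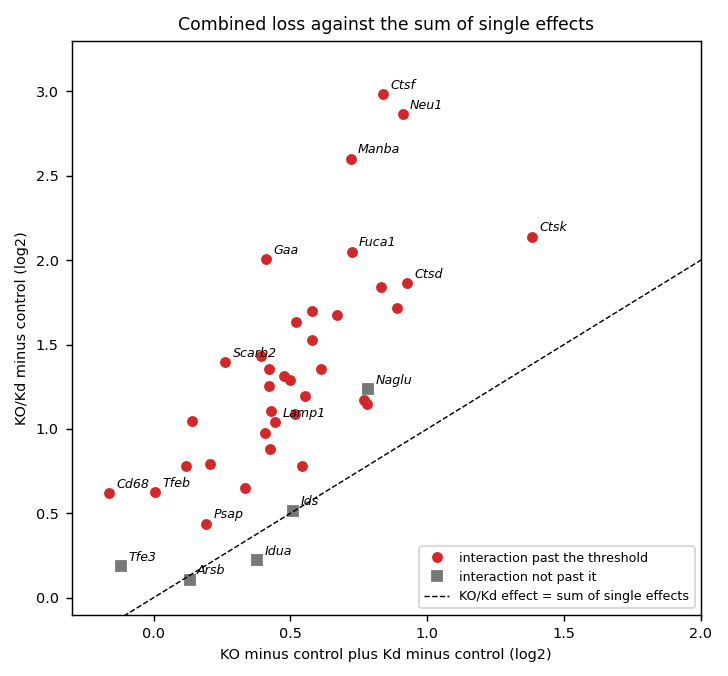
KO/Kd minus control (y axis, log2) against the sum of KO minus control and Kd minus control (x axis, log2) for 41 lysosomal genes, means of 3 arrays a group that share the control arrays. Points lie above the dashed line of equality for 39 of 41 genes, and grey squares mark the 5 whose interaction did not pass the threshold.

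Of the transcription factors, both regulators of the CLEAR element were measured. Tfeb read 50.1, 54.2 and 53.4 on the control arrays, 56.7, 60.3 and 49.2 on the KO arrays and 48.9, 47.6 and 54.5 on the Kd arrays. It was 101, 86.6 and 82.2 in KO/Kd cells and 50.5, 45.8 and 45.7 in +/+ cells. The KO/Kd arrays were the highest of the 15, and the other groups overlapped. Tfeb rose by 0.62 (SE 0.0794, adjusted p = 3.17e-06) against control and by 0.57 (SE 0.0794, adjusted p = 1.22e-05) against KO cells, while its fold change was 0.06 (SE 0.0794, adjusted p = 0.666) in KO and -0.05 (SE 0.0794, adjusted p = 0.787) in Kd cells. Its interaction was 0.62 (SE 0.112, adjusted p = 0.000317). Quantile normalization lowered the value against control to 0.26 (adjusted p = 0.0316) and that against KO cells to 0.34 (adjusted p = 0.00741), both still past the threshold. Tfe3 read 566, 537 and 548 on the control arrays, 387, 485 and 556 on the KO arrays and 605, 560.3 and 609.6 on the Kd arrays. It was 646, 642 and 597 in KO/Kd cells and 617, 665 and 608 in +/+ cells. The KO array with the lowest value, 387, stood below the other 2, and the KO/Kd arrays were above control and overlapped the +/+ arrays. Tfe3 was -0.22 (SE 0.097, adjusted p = 0.117) in KO cells. That direction passed the threshold after quantile normalization and after centring each array on its median, and also without KO replicate 3, at log2 -0.33 (adjusted p = 0.0139), whereas without KO replicate 1, the array at 387, it was -0.08 (adjusted p = 0.432). Against +/+ cells Tfe3 fell by 0.41 in KO cells (SE 0.097, adjusted p = 0.00568), and against KO cells it rose by 0.40 (SE 0.097, adjusted p = 0.00195) with the knockdown added; without KO replicate 1 these values were -0.27 (adjusted p = 0.0162) and 0.27 (adjusted p = 0.00664).

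All 9 tested proteases rose in KO/Kd cells (46.2% of all genes), with a median log2 fold change of 1.31 and a range from 0.78 (Ctsl) to 2.98 (Ctsf). In KO cells 8 of 9 rose (19.6% of all genes). Ctsd, the aspartic protease cathepsin D, read 3089.7, 3206 and 3024 on the control arrays, 4708, 5818 and 5966 on the KO arrays and 3494, 3449.7 and 3144 on the Kd arrays. It was 11504, 10452 and 12169 in KO/Kd cells and 4333, 4599.8 and 4701 in +/+ cells. The KO/Kd arrays lay above all others, the KO and +/+ arrays in between, and KO and +/+ did not overlap. The gene rose by 0.81 (SE 0.0881, adjusted p = 9.51e-06) in KO and 1.86 (SE 0.0881, adjusted p = 2.15e-11) in KO/Kd cells, and was 0.11 (SE 0.0881, adjusted p = 0.51) in Kd cells. Ctsf, the cysteine protease cathepsin F, read 15.2, 16.3 and 13.1 on the control arrays, 24.5, 30.1 and 30.4 on the KO arrays and 21.6, 25 and 20.8 on the Kd arrays. It was 203, 176 and 331 in KO/Kd cells and 27.2, 26.5 and 28.5 in +/+ cells. It was dim on the control arrays, below the filter there, and passed on 12 arrays. The KO/Kd arrays read 176 or more, while no other array exceeded 30.4. Ctsf rose by 2.98 (SE 0.149, adjusted p = 4.29e-11) in KO/Kd cells and by 0.52 (SE 0.149, adjusted p = 0.0181) in KO cells. The KO call was lost without control replicate 3, KO replicate 2 or KO replicate 3 (adjusted p = 0.0659, 0.0608 and 0.0651), or with array weights (0.199).

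Ctsk, cathepsin K, the collagen-degrading protease known from osteoclasts, read 23.5, 22.9 and 25.9 on the control arrays, 39.2, 23.8 and 23.9 on the KO arrays and 81.5, 93.4 and 62.4 on the Kd arrays. It was 129, 179 and 179 in KO/Kd cells and 52.2, 51.4 and 51.4 in +/+ cells. The Kd arrays already exceeded every control and KO array, and the KO/Kd arrays exceeded every Kd array. Ctsk rose by 1.23 (SE 0.139, adjusted p = 1.71e-05) in Kd, 2.14 (SE 0.139, adjusted p = 1.03e-09) in KO/Kd and 0.76 (SE 0.139, adjusted p = 0.00073) in +/+ cells, and was 0.15 (SE 0.139, adjusted p = 0.486) in KO cells. Its interaction was 0.76 (SE 0.197, adjusted p = 0.00519), but did not pass after quantile normalization (adjusted p = 0.0539) or with array weights (0.0651). KO cells were lower than +/+ cells by 0.61 (SE 0.139, adjusted p = 0.00433); with array weights this p was 0.119. Ctsh, the cysteine aminopeptidase cathepsin H, read 1547, 1554 and 1504 on the control arrays, 1936, 2142 and 2234 on the KO arrays and 1745, 1642 and 1658 on the Kd arrays. It was 4882, 5183 and 5023 in KO/Kd cells and 2721, 2649 and 2486 in +/+ cells. The groups were ordered control, Kd, KO, +/+ and KO/Kd, with no overlap of any neighbouring pair. Ctsh rose by 0.45 (SE 0.0663, adjusted p = 0.000162) in KO and 1.70 (SE 0.0663, adjusted p = 2.26e-12) in KO/Kd cells, and fell by 0.32 in KO against +/+ cells (SE 0.0663, adjusted p = 0.00233). Ctsz, the carboxypeptidase cathepsin Z, read 8081, 8272 and 7484 on the control arrays, 9332, 10658 and 11192 on the KO arrays and 8316, 8015 and 7902 on the Kd arrays. It was 16282, 14808 and 15806 in KO/Kd cells and 7304, 7075 and 6624 in +/+ cells. The +/+ arrays lay below all control arrays. Ctsz rose by 0.38 (SE 0.0756, adjusted p = 0.00159) in KO and 0.98 (SE 0.0756, adjusted p = 8.41e-09) in KO/Kd cells, and by 0.57 (SE 0.0756, adjusted p = 3.73e-05) in KO against +/+ cells. Against control it was -0.18 (SE 0.0756, adjusted p = 0.0854) in +/+ cells, and that decrease passed the threshold after quantile normalization (log2 -0.29, adjusted p = 0.000935).

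The remaining proteases tested were Ctsa, Tpp1, Ctsl and Ctsb. Ctsa, the carboxypeptidase that protects neuraminidase and beta-galactosidase, rose by 0.42 in KO and 1.29 in KO/Kd cells. Tpp1, a tripeptidyl peptidase, rose by 0.42 and 1.31. Ctsl, the broadly acting cathepsin L, read 20104, 19714 and 20096 on the control arrays, 23377, 26509 and 26866 on the KO arrays and 22337, 22872 and 22999.8 on the Kd arrays. It was 34530.2, 34586 and 33807 in KO/Kd cells and 23494, 24258 and 22751 in +/+ cells. Every other group lay above control, and the KO/Kd arrays stood clear of the rest. Ctsl rose by 0.35 (SE 0.0633, adjusted p = 0.000755) in KO and 0.78 (SE 0.0633, adjusted p = 1.47e-08) in KO/Kd cells. Its interaction of 0.24 (SE 0.0895, adjusted p = 0.0412) was past the threshold by little and was lost without any one array of the control, Kd or KO/Kd groups or KO replicate 1, with adjusted p from 0.0602 to 0.0851, and also after quantile normalization (0.0594) or with the replicate block (0.0616). Its increase in +/+ cells, 0.23, was lost without +/+ replicate 2 (adjusted p = 0.0523). Ctsb, cathepsin B, read on the probe set used 6609, 6967 and 6506 on the control arrays, 7252, 7928 and 8117 on the KO arrays and 6569.7, 6266 and 6257 on the Kd arrays. It was 13717, 13942 and 13858 in KO/Kd cells and 7735, 7496 and 7139 in +/+ cells. The KO/Kd arrays were nearly level with each other and far above the rest, and the KO arrays lay above control. Ctsb rose by 0.21 (SE 0.063, adjusted p = 0.022) in KO and 1.05 (SE 0.063, adjusted p = 4.05e-10) in KO/Kd cells. The KO call was lost without control replicate 1 or 3 or KO replicate 2 or 3 (adjusted p from 0.0608 to 0.0833), with array weights (0.199) or with only the groups compared (0.127), and after quantile normalization the value was 0.12 (adjusted p = 0.0254). The probe sets of Ctsb differed in size: against control, KO/Kd cells were at 1.05 and 1.08 on a pair of them and at 2.99 and 2.50 on another pair. Of the lysosomal genes, 26 had 43 further probe sets past the filter. Of these probe sets 34 were higher in KO/Kd cells with no overlap of arrays, 0 were lower without overlap and 9 overlapped. The share over all probe sets was not computed. At 1 probe set per gene, KO/Kd and control arrays did not overlap, in either direction, for 71.4% of all genes.

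The glycosidases, which trim sugars from glycoproteins, glycolipids and glycosaminoglycans, had a median of 1.72 in KO/Kd cells, and 10 of 11 rose (46.2% of all genes). In KO cells 10 of 11 rose (19.6% of all genes), with a median of 0.55. Neu1, neuraminidase 1, which removes sialic acid, read 106, 124 and 107 on the control arrays, 208, 256 and 265 on the KO arrays and 133, 135 and 60.5 on the Kd arrays. It was 1000.4, 859 and 899.5 in KO/Kd cells and 204, 200.1 and 164 in +/+ cells. The Kd arrays included one at 60.5, below every control array, and every KO/Kd array exceeded all arrays of the other groups. Neu1 rose by 1.01 (SE 0.19, adjusted p = 0.00115) in KO and 2.87 (SE 0.19, adjusted p = 1.31e-09) in KO/Kd cells, with an interaction of 1.96 (SE 0.269, adjusted p = 2.16e-05); in Kd cells it was -0.10 (SE 0.19, adjusted p = 0.831). With array weights the KO change was 0.94 and missed the threshold (adjusted p = 0.0892). Manba, beta-mannosidase, read 151, 159.6 and 164 on the control arrays, 362, 378 and 381 on the KO arrays and 141, 110.1 and 91 on the Kd arrays. It was 1099, 972 and 1055 in KO/Kd cells and 128, 101 and 103 in +/+ cells. KO arrays exceeded all control, Kd and +/+ arrays, and KO/Kd arrays exceeded KO arrays. Kd and +/+ arrays lay below control. Manba rose by 1.16 (SE 0.112, adjusted p = 3.14e-06) in KO and 2.60 (SE 0.112, adjusted p = 7.44e-12) in KO/Kd cells, and fell by 0.44 in Kd (SE 0.112, adjusted p = 0.0178) and 0.46 in +/+ cells (SE 0.112, adjusted p = 0.00556). The Kd call was lost without control replicate 2 or 3 or Kd replicate 2 or 3 (adjusted p from 0.0547 to 0.0946). The interaction of Manba was 1.88 (SE 0.159, adjusted p = 1.27e-07).

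Gaa, the acid alpha-glucosidase that degrades glycogen, read 1506, 1513 and 1612 on the control arrays, 1862, 2143 and 2420.2 on the KO arrays and 1451, 1548 and 1478 on the Kd arrays. It was 6361, 5722 and 6705 in KO/Kd cells and 1649, 1734 and 1624 in +/+ cells. Control, Kd and +/+ arrays lay close together and below the KO arrays. Gaa rose by 0.46 (SE 0.0865, adjusted p = 0.00112) in KO and 2.01 (SE 0.0865, adjusted p = 7.35e-12) in KO/Kd cells and was -0.05 (SE 0.0865, adjusted p = 0.815) in Kd cells. Glb1, beta-galactosidase, read 942, 984 and 867 on the control arrays, 1307, 1518 and 1547 on the KO arrays and 1144, 1105 and 1086 on the Kd arrays. It was 2979.6, 3230.4 and 3063 in KO/Kd cells and 1262, 1290.3 and 1278 in +/+ cells. All Kd arrays exceeded all control arrays, and the KO/Kd arrays were higher than every other. Glb1 rose by 0.25 (SE 0.0729, adjusted p = 0.0347) in Kd, 0.64 (SE 0.0729, adjusted p = 1.63e-05) in KO and 1.72 (SE 0.0729, adjusted p = 6.2e-12) in KO/Kd cells. The Kd call of Glb1 was lost without control replicate 1 or 3 or any one Kd replicate (adjusted p from 0.0685 to 0.157). Man2b1, the lysosomal alpha-mannosidase, read 1206, 1075 and 1062 on the control arrays, 1594, 1621 and 1693 on the KO arrays and 1398, 1304 and 1363 on the Kd arrays. It was 4121, 3815 and 4177 in KO/Kd cells and 1325, 1308 and 1264 in +/+ cells. The KO/Kd arrays stood apart above the rest, and +/+ arrays overlapped Kd arrays. Man2b1 rose by 0.28 (SE 0.0666, adjusted p = 0.0116) in Kd, 0.55 (SE 0.0666, adjusted p = 2.74e-05) in KO and 1.84 (SE 0.0666, adjusted p = 8.83e-13) in KO/Kd cells, the Kd call being lost without control replicate 2 or 3 or Kd replicate 1, or with all its probe sets averaged (adjusted p from 0.0566 to 0.159).

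Naglu, an N-acetylglucosaminidase of heparan sulfate, read 179, 231 and 243 on the control arrays, 268, 300.4 and 366 on the KO arrays and 299, 276 and 233 on the Kd arrays. It was 476, 593 and 524 in KO/Kd cells and 352, 378 and 375 in +/+ cells. Control and KO arrays did not overlap, and KO/Kd arrays were the highest. Naglu rose by 0.49 (SE 0.125, adjusted p = 0.00928) in KO, 1.23 (SE 0.125, adjusted p = 2.1e-07) in KO/Kd and 0.73 (SE 0.125, adjusted p = 0.000385) in +/+ cells. The KO call was lost without control replicate 1 or KO replicate 3 (adjusted p = 0.0542 and 0.0543) or with array weights (0.105). Its interaction of 0.45 sat at the threshold and was called in 9 of the alternatives, such as without control replicate 1 (0.57, adjusted p = 0.0121). Fuca1, alpha-fucosidase, read 1628, 1689 and 1573 on the control arrays, 2293, 2629.9 and 2589 on the KO arrays and 1774, 1741 and 1772 on the Kd arrays. It was 6753, 6507 and 7154 in KO/Kd cells and 2146, 2177 and 2116 in +/+ cells. The +/+ and KO arrays lay above those of control and Kd, and the KO/Kd arrays were the highest. Fuca1 rose by 0.61 (SE 0.066, adjusted p = 9.09e-06) in KO and 2.05 (SE 0.066, adjusted p = 2.29e-13) in KO/Kd cells. Gusb, beta-glucuronidase, read 1835, 1864 and 1701 on the control arrays, 1939, 2125 and 2243 on the KO arrays and 1764, 1766 and 1808 on the Kd arrays. It was 3128, 3319 and 2941 in KO/Kd cells and 2152, 2114 and 2071 in +/+ cells. Kd arrays overlapped control, and KO/Kd arrays stood above all others. Gusb rose by 0.22 (SE 0.0692, adjusted p = 0.0291) in KO and 0.79 (SE 0.0692, adjusted p = 3.62e-08) in KO/Kd cells. The KO call was lost without control replicate 1 or 3 or KO replicate 2 or 3 (adjusted p from 0.0544 to 0.126), and after quantile normalization the value was 0.12 (adjusted p = 0.0586). Array weights (0.186), centring on array medians (0.0507) and fitting only the groups compared (0.121) also ended it. Gla, alpha-galactosidase A, rose by 0.58 in KO and 1.64 in KO/Kd cells, and Hexa, a hexosaminidase subunit, by 0.48 and 1.35. Idua was 0.31 (adjusted p = 0.0515) in KO cells.

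Among the 5 sulfatases, which remove sulfate from glycosaminoglycans and sulfatide, 4 rose in KO/Kd (46.2% of all genes) and 3 in KO cells (19.6% of all genes). Arsa, arylsulfatase A, which acts on sulfatide, read 1205, 1087 and 1104 on the control arrays, 1583, 1762 and 1812 on the KO arrays and 1176, 1118 and 1066 on the Kd arrays. It was 3333, 3218 and 3313 in KO/Kd cells and 1255, 1137 and 1153 in +/+ cells. Control, Kd and +/+ arrays overlapped, KO arrays lay above them and KO/Kd arrays above those. Arsa rose by 0.59 (SE 0.0712, adjusted p = 2.48e-05) in KO and 1.53 (SE 0.0712, adjusted p = 1.83e-11) in KO/Kd cells, and by 0.53 (SE 0.0712, adjusted p = 3.69e-05) in KO against +/+ cells. Sgsh, the sulfamidase of heparan sulfate, rose by 0.51 and 1.68. Ids, the iduronate sulfatase, read 1650.1, 1726 and 1640.2 on the control arrays, 1971, 2019 and 2202 on the KO arrays and 1977, 1897 and 1939 on the Kd arrays. It was 2373, 2541 and 2286 in KO/Kd cells and 2382, 2339 and 2161 in +/+ cells. All groups lay above control, and +/+ arrays overlapped KO/Kd arrays. Ids rose by 0.30 (SE 0.0668, adjusted p = 0.00385) in KO and 0.52 (SE 0.0668, adjusted p = 3.81e-06) in KO/Kd cells, the second being 0.30 after quantile normalization (adjusted p = 2.37e-05), with an interaction of 0.01 (SE 0.0944, adjusted p = 0.97). Its increase of 0.22 in KO/Kd against KO cells was lost without KO/Kd replicate 2 (adjusted p = 0.0573), after quantile normalization (0.0622), with array weights (0.12), with only the groups compared (0.0835) or with its probe sets averaged (0.111). Galns, which acts on keratan sulfate, rose by 0.78 in KO/Kd cells and was 0.01 in KO cells, with an interaction of 0.66 (SE 0.153, adjusted p = 0.00226). Arsb stayed at 0.14 in KO and 0.11 in KO/Kd cells.

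All 4 lipid hydrolases rose in KO and in KO/Kd cells (19.6% and 46.2% of all genes), with medians of 0.33 and 1.30. Asah1, the acid ceramidase, read 7522, 7623 and 6925 on the control arrays, 9978, 10521 and 10666 on the KO arrays and 9172, 8925 and 8745 on the Kd arrays. It was 16111, 16195 and 16652 in KO/Kd cells and 9892, 10163 and 9557 in +/+ cells. Every group lay above control, Kd arrays lay below those of KO, and KO/Kd arrays were the highest. Asah1 rose by 0.28 (SE 0.0609, adjusted p = 0.00613) in Kd, 0.50 (SE 0.0609, adjusted p = 2.88e-05) in KO and 1.15 (SE 0.0609, adjusted p = 8.87e-11) in KO/Kd cells, with an interaction of 0.37 (SE 0.0861, adjusted p = 0.00244). Lipa, the acid lipase, rose by 0.38 in KO and 1.35 in KO/Kd cells. Ppt1, a thioesterase that removes palmitate from proteins, read 1860.3, 1865 and 1625 on the control arrays, 1902, 2174 and 2419 on the KO arrays and 2040.3, 1902 and 1869 on the Kd arrays. It was 5007, 4664 and 4832 in KO/Kd cells and 2219, 2116 and 2087 in +/+ cells. The KO/Kd arrays exceeded every other. KO, Kd and +/+ arrays lay above control, and KO arrays overlapped those of Kd and of +/+, while Kd arrays lay below +/+ arrays. Ppt1 rose by 0.27 (SE 0.0842, adjusted p = 0.0267) in KO and 1.43 (SE 0.0842, adjusted p = 3e-10) in KO/Kd cells. The KO call was lost without control replicate 3 or KO replicate 2 or 3 (adjusted p from 0.0744 to 0.13), with array weights (0.175) or with only the groups compared (0.0775), and after quantile normalization the value was 0.18 (adjusted p = 0.0264). Smpd1, the acid sphingomyelinase, read 794, 908 and 841 on the control arrays, 924, 1054 and 1122 on the KO arrays and 1001, 908 and 904 on the Kd arrays. It was 2058, 1938 and 2138 in KO/Kd cells and 1106, 1099 and 1073 in +/+ cells. KO arrays lay above control and overlapped the Kd and +/+ arrays, and KO/Kd arrays exceeded all others. Smpd1 rose by 0.28 (SE 0.0787, adjusted p = 0.0171) in KO and 1.25 (SE 0.0787, adjusted p = 6.51e-10) in KO/Kd cells. Its KO call was lost without control replicate 1 or 3 or KO replicate 2 or 3 (adjusted p from 0.0514 to 0.0793), with array weights (0.185) or with only the groups compared (0.0606).

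The 7 membrane proteins with a probe set all rose in KO/Kd cells (46.2% of all genes), with a median of 1.10. In KO cells 4 of 7 rose (19.6% of all genes). Lamp1, a heavily glycosylated protein that lines the limiting membrane, read 10074, 9821 and 9755 on the control arrays, 11979, 12731 and 12911 on the KO arrays and 10738, 10741 and 10362 on the Kd arrays. It was 20323, 19809 and 20836 in KO/Kd cells and 10805, 11037 and 10484 in +/+ cells. KO arrays exceeded all control, Kd and +/+ arrays, and KO/Kd arrays exceeded KO arrays. Lamp1 rose by 0.34 (SE 0.0577, adjusted p = 0.000461) in KO and 1.04 (SE 0.0577, adjusted p = 1.54e-10) in KO/Kd cells and was 0.10 (SE 0.0577, adjusted p = 0.317) in Kd cells. In KO/Kd cells Scarb2, the receptor that carries beta-glucocerebrosidase, rose by 1.39, Npc1, the cholesterol exporter, by 1.20, and Mcoln1, a calcium channel, by 1.17. Cln3, a membrane protein mutated in Batten disease, rose by 1.10. Scarb2 at 0.14 and Cln3 at 0.28 did not pass in KO cells. Lamp2, the second abundant glycoprotein of the membrane, read 11822, 12164 and 11935 on the control arrays, 13537, 15428 and 15169 on the KO arrays and 13661, 12756 and 12905 on the Kd arrays. It was 22493, 21235 and 22507 in KO/Kd cells and 15777, 15279 and 14352 in +/+ cells. Control arrays were the lowest, KO and +/+ arrays overlapped, and KO/Kd arrays were the highest. Lamp2 rose by 0.29 (SE 0.0668, adjusted p = 0.00439) in KO, a call lost with array weights (0.0793), and by 0.88 (SE 0.0668, adjusted p = 6.43e-09) in KO/Kd cells. Cd68 read 24.4, 32.7 and 34.3 on the control arrays, 24.4, 31.4 and 34.9 on the KO arrays and 24.3, 32.7 and 20.6 on the Kd arrays. It was 46.6, 83.7 and 41.3 in KO/Kd cells and 45.2, 33.2 and 35.3 in +/+ cells. It was dim throughout, and 1 KO/Kd array, at 83.7, stood far above the other 2, which overlapped or neared the +/+ arrays. Cd68 rose by 0.62 (SE 0.172, adjusted p = 0.00472) in KO/Kd cells and was -0.01 (SE 0.172, adjusted p = 0.983) in KO cells. Without KO/Kd replicate 2 the increase was 0.37 (adjusted p = 0.0243), against KO cells it went from 0.63 to 0.38 (adjusted p = 0.0253), and after quantile normalization it missed the threshold against control, at 0.34 (adjusted p = 0.0855). Cd68 is also a macrophage marker, and the other macrophage markers are given above.

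The 3 soluble proteins that are not enzymes rose in KO/Kd cells (46.2% of all genes), with a median of 0.65. Grn, the progranulin gene, rose by 0.39 in KO and 1.09 in KO/Kd cells. Npc2, the soluble cholesterol carrier, read 13215, 13751 and 13458 on the control arrays, 16366, 16475 and 17899.5 on the KO arrays and 14199.7, 13481 and 12937 on the Kd arrays. It was 21244, 21099.6 and 21045 in KO/Kd cells and 16418, 16822 and 16648 in +/+ cells. KO and +/+ arrays lay between control and KO/Kd, and Kd arrays overlapped control. Npc2 rose by 0.33 (SE 0.0601, adjusted p = 0.000966) in KO and 0.65 (SE 0.0601, adjusted p = 7.49e-08) in KO/Kd cells, the second being 0.43 after quantile normalization (adjusted p = 1.25e-06). Psap, the precursor of the saposins that help lipid hydrolases, read 10440.5, 10329 and 10579 on the control arrays, 10782, 12324 and 11878 on the KO arrays and 11067, 10709.9 and 10395 on the Kd arrays. It was 13086, 14708 and 14751 in KO/Kd cells and 11704, 11659 and 11689.6 in +/+ cells. KO/Kd arrays lay above all others, and Kd arrays overlapped control. Psap rose by 0.44 (SE 0.0675, adjusted p = 2.56e-05) in KO/Kd cells, or 0.22 after quantile normalization (adjusted p = 0.00228), and was 0.16 (SE 0.0675, adjusted p = 0.108) in KO cells, which passed without KO replicate 1 (0.21, adjusted p = 0.0237). Its interaction of 0.25 (SE 0.0954, adjusted p = 0.0489) was lost without any one array of the 4 groups in it except KO replicates 2 and 3 and KO/Kd replicate 1, with adjusted p from 0.054 to 0.117, and after quantile normalization it was 0.16 (adjusted p = 0.0981). With the replicate block that p was 0.066.

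**Figure D3:**
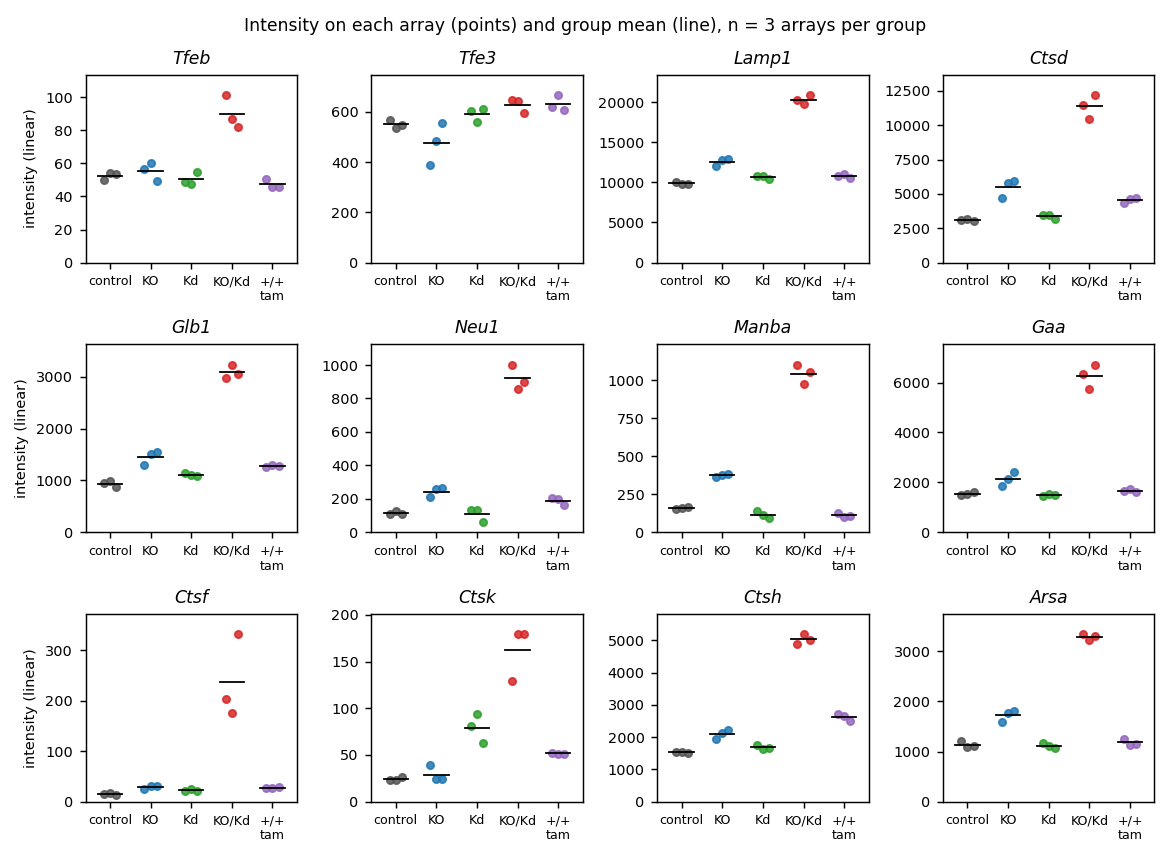
Intensity (y axis, linear, from 0) on each array for 12 of the genes described, with each group's mean as a line, 3 arrays per group. KO/Kd arrays lie above all other arrays for Lamp1, Ctsd, Glb1, Neu1, Manba, Gaa and Arsa, and overlap the +/+ arrays for Tfe3.

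The +/+ group with tamoxifen also differed from control. In it 24 of 41 genes rose and 1 fell, Manba, against 21.5% and 6.93% of all genes, with a median of 0.27 against 0.08. After quantile normalization 18 rose and 3 fell, Ctsz, Manba and Galns, against 14.5% and 15% of all genes. Calls of 6 genes shown by array depended on 1 array there: Ctsf, Gusb, Man2b1, Neu1, Ppt1 and Ctsl were lost without 1 +/+ replicate (replicate 1 or 3 for Ctsf, 1 or 2 for Gusb, Man2b1, Neu1 and Ppt1, and 2 for Ctsl; adjusted p from 0.0503 to 0.0982), that of Man2b1 without control replicate 2 (0.0803), and Ctsf, Gusb, Man2b1 and Ppt1 also without control replicate 3 (adjusted p = 0.0747, 0.0977, 0.0944 and 0.138). The genes with the highest fold changes there were Ctsh at 0.76, Ctsk at 0.76 and Naglu at 0.73. The arrays of +/+ and control did not overlap for 35 of 41 genes, against 47.7% of all genes.

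KO cells were also set against +/+ cells, with tamoxifen on both sides but different cells. Of 41 genes 10 rose and 3 fell, against 12.8% and 11.3% of all genes, with a median of 0.06 against -0.01 (after quantile normalization 14 rose and 4, Ctsh, Ctsk, Ids and Tfe3, fell, against 16.1% and 16.2%), and arrays did not overlap for 16 of 41 (33.3% of all genes). Those that rose were Manba at 1.63, Ctsz at 0.57, Arsa at 0.53, Gaa at 0.35, Man2b1 at 0.33, Mcoln1 and Ctsd at 0.27, Lipa at 0.25, and Fuca1 and Lamp1 at 0.22. Ctsk, Tfe3 and Ctsh fell. The Ctsd call was lost without KO replicate 2 or 3 or any one +/+ replicate, with adjusted p from 0.056 to 0.144, and with the replicate block (0.0505), array weights (0.217) or only the groups compared (0.076). That of Fuca1 was lost without KO replicate 2 or 3 or any one +/+ replicate, with adjusted p from 0.052 to 0.109, and with array weights (0.204), only the groups compared (0.125) or its probe sets averaged (0.107). With array weights the calls of Lamp1 (0.102) and Gaa (0.0502) were lost too, and that of Lamp1 also with only the groups compared (0.116). KO/Kd against +/+ cells gave 36 of 41 higher and 0 lower (37 and 0 at an unadjusted p under 0.05), against 38.3% and 23.5% of all genes (31.9% and 32.7% after quantile normalization, where 1 gene, Idua, fell), with a median of 0.92 against 0.09. Arrays did not overlap for 36 of 41 (67.7% of all genes). The 5 that did not pass were Cd68, Ids, Idua, Arsb and Tfe3.

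Genes of the surrounding pathway were described from 6 further lists. Their counts stand beside the shares of all genes that rose and fell, 46.2% and 19.3% in KO/Kd, 19.6% and 4.66% in KO and 7.55% and 3.04% in Kd cells. Counts after quantile normalization, chosen after seeing the data, follow each list, and there the all-gene shares were 32.3% and 33.4% in KO/Kd, 14% and 14.5% in KO and 8.33% and 7.29% in Kd cells. Of 19 other lysosomal enzymes and cofactors tested, 13 rose and 2 fell in KO/Kd cells (median 0.82), 10 rose in KO cells and 2 rose and 1 fell in Kd cells. After rescaling, 11 rose and 4 fell (median 0.61) in KO/Kd cells, 9 rose and 0 fell in KO cells and 3 rose and 6 fell in Kd cells. Gm2a, the activator of ganglioside breakdown, rose by 2.79 (SE 0.115) from 151 ± 17.3 (SD, n = 3) to 1139 ± 87.2, and Ifi30, a thiol reductase, by 1.72. Naaa, an acid amidase, fell by 1.83 and Cpq, a carboxypeptidase, by 0.51. Ctsc, cathepsin C, rose by 1.24 in Kd cells. Of 19 other membrane proteins 15 rose and 2 fell (median 0.72) in KO/Kd cells, 9 rose in KO and 3 in Kd cells. Rescaled, 13 rose and 3 fell (median 0.44) in KO/Kd cells, 8 rose and 0 fell in KO and 2 rose and 1 fell in Kd cells. Ostm1, the partner of the chloride transporter Clcn7, rose by 2.14 and Ctns, the cystine exporter, by 1.49; Tmem175, a potassium channel, fell by 1.09 and Tpcn2, a cation channel, by 0.40.

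The proton pump acidifies the lysosome, and tagging and delivery genes supply its enzymes. Of 16 subunits of the vacuolar proton pump 15 rose in KO/Kd (median 1.07) and 15 in KO cells, and 2 in Kd cells, with 0 lower in KO/Kd and KO cells; at an unadjusted p under 0.05 the counts for KO/Kd and KO were 15 higher and 0 lower. Rescaled, 14 rose in KO/Kd (median 0.86), 15 in KO and 3 in Kd cells, and 0 fell. Atp6v0b rose by 1.76, Atp6v0d1 by 1.41 and Atp6ap2 by 1.40 in KO/Kd cells. Of 16 genes of mannose phosphate tagging and delivery 13 rose and 3 fell (Gga1, Gga3 and Cln8), with a median of 0.71, and 7 rose in KO and 0 in Kd cells (3 higher and 1 lower there at an unadjusted p under 0.05). Rescaled, 11 rose and 3 fell (median 0.42) in KO/Kd cells, 7 rose and 1 fell in KO and 0 rose and 1 fell in Kd cells. Igf2r, the large mannose 6-phosphate receptor, rose by 1.85, and Gnptg, a subunit of the tagging enzyme, by 2.56. Sort1, the sorting receptor sortilin, rose by 3.68 from 16.4 ± 0.752 to 400.1 ± 44.1 (SD, n = 3), passing the filter on 10 arrays.

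Of 23 genes of mTORC1, the Rag GTPases and folliculin 15 rose and 2 fell (Mlst8 and Depdc5) in KO/Kd cells, median 0.49, and 8 rose in KO cells; 0 were called in Kd cells, where 4 were higher and 3 lower at an unadjusted p under 0.05. Rescaled, 14 rose and 6 fell (median 0.26) in KO/Kd cells, 7 rose and 2 fell in KO and 0 rose and 3 fell in Kd cells. Rragd, a Rag GTPase that is itself a known Tfeb target, rose by 4.64 (SE 0.191) in KO/Kd cells, from 22.1 ± 2.37 to 942 ± 163 (SD, n = 3), and by 1.10 in KO cells. Flcn, folliculin, rose by 0.94 and its partner Fnip1 by 0.91. Of 10 related factors and reported Tfeb targets 9 rose and 1 fell in KO/Kd cells, median 0.85, with Map1lc3b, an autophagosome protein, at 1.27. In KO cells 5 rose and 0 fell, and in Kd cells 0 rose and 2 fell (2 higher and 2 lower at an unadjusted p under 0.05). Rescaled, 8 rose and 1 fell (median 0.64) in KO/Kd cells, 5 rose and 1 fell in KO and 1 rose and 2 fell in Kd cells. Mitf, a relative of Tfeb, fell by 0.47 in KO/Kd and by 0.75 in Kd cells. Gabarapl1, an autophagosome protein, fell by 0.26 in Kd cells but rose by 0.98 in KO/Kd cells.

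**Figure D4:**
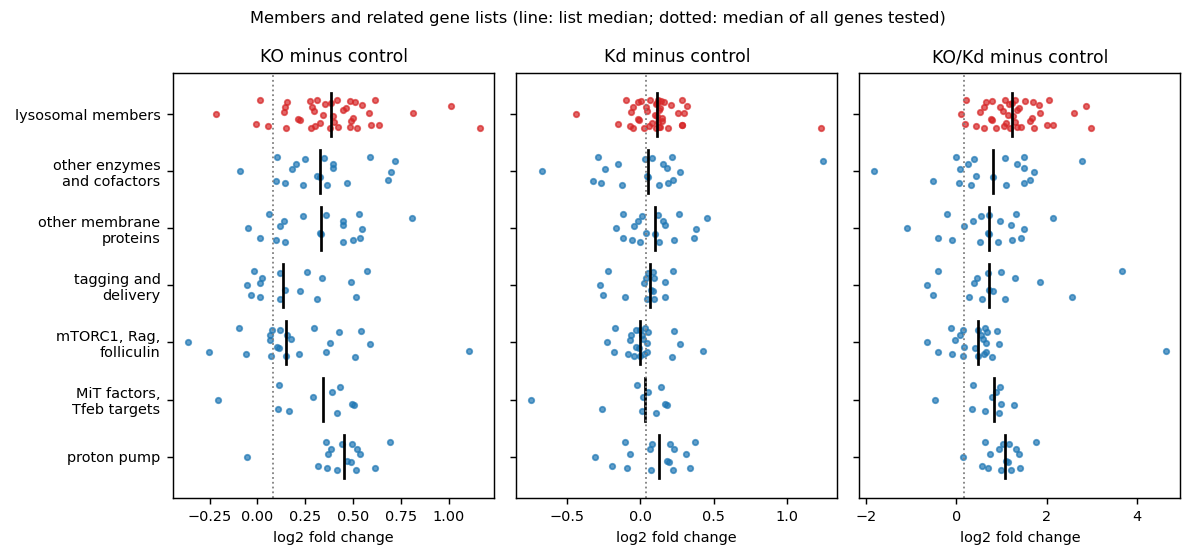
Log2 fold change (x axis) of the 41 lysosomal genes and of 6 pathway lists in KO, Kd and KO/Kd cells against control, 1 point per gene, with each list's median as a black line and the all-gene median dotted. In KO/Kd minus control the medians of the 6 lists lie between 0.49 and 1.07, that of the lysosomal genes at 1.23 and that of all genes at 0.16.

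Promoter letters were set beside the KO/Kd values as a description with no test. All 13 tested genes with a core in their window rose in KO/Kd cells, with a median of 1.53, from 0.78 (Ctsl) to 2.98 (Ctsf). Of the 23 without it 20 rose, with a median of 1.09. Among other genes tested, 51.1% of 1203 with a core, 45.2% of 9495 without and 63.6% of 217 with the longer palindrome rose, and their medians were 0.20, 0.15 and 0.36. Neu1 and Manba rose by 2.87 and 2.60 without a core in their windows, which says only that these letters are not there. In the pathway lists, 50% of 12 tagging and delivery genes held a core and 33.3% the longer palindrome. For the proton pump these shares were 33.3% and 25% of 12, and for other membrane proteins 23.5% and 23.5% of 17. For mTORC1, Rag and folliculin they were 27.3% and 0% of 22. Other enzymes and cofactors gave 12.5% and 6.25% of 16, and related factors and Tfeb targets 9.09% and 0% of 11. The lysosomal genes stood at 34.2% and 13.2%.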

How the data were processed

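Total RNA of 15 samples was column-purified and hybridised to Affymetrix mouse expression arrays, per the labels' protocols. The deposited table gives linear intensity for 45037 probe sets; the authors' summarisation, background correction and scaling are not given in the sources used here. GEO's platform annotation gave 1 symbol to 34945 probe sets, several to 932 and none to 9160, and only the first were used. The platform's Entrez identifiers matched RefSeq for 34741, which changed 0 symbols.

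Genes above the 40th percentile of their array on at least 3 arrays were fitted with limma 3.58.1 in R 4.3.3 on log2(intensity + 16), 1 coefficient per group over all 15 arrays, with Benjamini-Hochberg adjustment over 13382 genes at a threshold of 0.05. The precision is limited by the 3 arrays per group. On simulated data for KO/Kd against control over these 13382 genes the fit called 71.2% of genes shifted by 0.5 and 99.6% of those shifted by 1 (log2). Only a small share of genes was shifted there, whereas 46.2% rose and 19.3% fell in the data. The adjusted threshold was therefore stricter in the simulation, and its rates are not those of the real comparison.

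Members, lists and tests were chosen with earlier results of these data known. Values per array are given for Tfeb, Tfe3, Lamp1, Ctsd, Glb1 and Neu1 and for members among the 4 highest or 4 lowest of the members' called fold changes in any comparison, small increases included. Of each pathway list, up to 3 called genes with the largest absolute change in KO, KO/Kd or Kd against control were eligible to be named. Only some of them are named, mostly by their KO/Kd values. The other genes that fell were named after their values were seen. Replicate numbers were not used to pair samples in the main fit, and whether they mark a shared culture or batch is not stated. Deviations from group means of same-numbered arrays correlated at -0.161 to 0.135 over 30 pairs, 4 of them over 0.1. Arrays of other numbers correlated at -0.115 to 0.189 over 60 pairs, 2 of them over 0.1. These values cannot exclude a pairing. Alternatives covered scaling, filter, pseudocount, probe set choice, array weights, the variance model, the groups fitted and each array left out.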

Additional observations from a re-analysis of the deposited data

Results flagged for a closer look

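The effect of Hdac1 deletion with tamoxifen differed between cells with the micro-RNA against Hdac2 and cells with the scrambled one, by the interaction term, for 36 of 41 lysosomal genes, all with the larger increase in the knockdown cells. Of all genes tested, 25.8% had a positive and 17.2% a negative interaction past the threshold. Of the genes described by array, the interaction (log2) was 2.15 for Ctsf, 1.96 for Neu1, 1.88 for Manba, 1.59 for Gaa, 1.33 for Fuca1, 1.12 for Ctsh, 1.04 for Ppt1, 1.01 for Man2b1, 0.95 for Arsa, 0.94 for Ctsd and 0.91 for Ctsb. It was 0.83 for Smpd1 and Glb1, 0.78 for Cd68, 0.76 for Ctsk, 0.62 for Tfeb, 0.59 for Lamp1 and Gusb, 0.57 for Ctsz and 0.46 for Lamp2. The lowest were 0.37 for Asah1, 0.32 for Npc2, 0.25 for Psap and 0.24 for Ctsl. Groups of 3 arrays were not tested for outlying arrays.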

How the results depend on the processing

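The number of lysosomal genes called was recomputed under 11 settings and without each of the 15 arrays. It stayed within 1.5 times its reported value except in 2 comparisons. For Kd against control, 5 as reported, it was 8 with a trended and robust variance, with the mean of all probe sets, after centring on array medians or with array weights, and 9 with only the groups compared. For KO against +/+, 13 as reported, it was 7 with array weights. Inside the bound of 1.5, array weights gave 22 for KO against control, reported as 31. They gave 34 for +/+ against control, reported as 25. Without 1 array at a time, the counts ran from 26 to 34 (KO against control), 2 to 4 (Kd against control), 38 to 38 (KO/Kd against control and against Kd), 38 to 39 (KO/Kd against KO), 33 to 38 (interaction), 18 to 24 (+/+ against control), 9 to 17 (KO against +/+) and 36 to 37 (KO/Kd against +/+). With the replicate number as a block, whose meaning is not stated, the counts against control were 31 in KO, 5 in Kd, 38 in KO/Kd and 25 in +/+ cells. With the block KO/Kd cells gave 38 against Kd, 39 against KO and 37 against +/+ cells, the interaction 35, and KO against +/+ 10. Of 4284 values of single genes, 4092 stayed on the same side of the threshold, 50 of them, past it in neither, with a changed sign. Another 129 lost it, 62 gained it and 1 reversed: Ids in KO/Kd against +/+ cells, 0.06 and not called as reported, was -0.16 (adjusted p = 0.0369) with its probe sets averaged. Genes of the pathway lists called after quantile normalization are given with those lists. The intensity table carries no depth or detection call, so how far dim genes such as Ctsf stand above background was not measured; the cause of lost calls was not tested.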
